A study of Arabidopsis thaliana with 6 samples.

Results

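MIR172a, MIR172b, MIR172c, MIR172d and MIR172e are the 5 Arabidopsis thaliana genes whose transcripts are cut into miR172. The array carries 8 probes named for these precursors, of 15013 probes in all and of 331 named for 173 miRNA precursors. They were taken by transcript name, every non-control probe named ath-MIR172a to ath-MIR172e. MIR172a (AT2G28056, chromosome 2) and MIR172b (AT5G04275, chromosome 5) have 1 probe each. MIR172c (AT3G11435) and MIR172d (AT3G55512), both on chromosome 3, and MIR172e (AT5G59505, chromosome 5) have 2 each. Locus names and chromosomes come from RefSeq (assembly TAIR10.1), which lists all 5 genes. No source used here gives the position of a probe along its precursor.

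A miRNA gene is transcribed by RNA polymerase II into a long primary transcript, from which DICER-LIKE 1 (DCL1) cuts a hairpin and then the mature miRNA. miR172 represses AP2-type transcription factors, among them APETALA2 and TARGET OF EAT1, by blocking translation and by cleavage of their mRNAs, and in flowers this limits APETALA2 activity as the organs form. Over plant age miR172 rises while miR156 declines, and the gain of miR172b in the activation-tagged line EAT causes early flowering. RDR2 (RNA-DEPENDENT RNA POLYMERASE 2) acts in another small RNA route, copying single-stranded transcripts into double-stranded RNA that is cut into small interfering RNAs and directs DNA methylation. The probes carry the names of precursors, and the signals below are given under those names and not as levels of mature miR172. Probe sequences were not used here, so whether a probe also hybridises with another MIR172 precursor was not checked.

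The arrays compared inflorescences of 4-week-old plants in the Col-0 ecotype, 3 samples of wild type and 3 of an rdr2 mutant. The protocols name the mutant allele as rdr2-1, while a genotype field reads rdr2-1, rdr2-2 and rdr2-3 in the 3 mutant samples, which were treated as 1 group as titled. Each sample is described as a biological replicate and held open flowers, buds and some very young siliques, with plants raised on medium or in a greenhouse. Total RNA (0.5 µg) was labelled with Cy3 and hybridised to a 1-colour custom Agilent array.

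Wild-type replicates 1 and 2 shared a slide, as did mutant replicates 1 and 2, and no slide held arrays of both groups, so no comparison within a slide was possible. Between 17.56% and 37.87% of all probes were well above background, the scanner software's flag for a signal clearly over background. This flag did not simply follow the local background medians given below. For scaling, each array's 75th percentile intensity was used, which ran from 304.9 to 371.5 on wild-type arrays and from 154.8 to 284.8 on mutant arrays. RDR2 itself (AT4G11130) fell on each of its 3 probes, with log2 changes of -2.73, -2.69 and -2.63 (limma adjusted p = 0.000168 to 0.000301). None of the 10 listed floral genes, which include the markers set for the labelled organ, nor of the 5 leaf and 4 root markers, was found among the probe names, so the organ was not checked against them.

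Of the 5 precursors, MIR172b and MIR172e gave a signal, and MIR172a, MIR172c and MIR172d were not well above background on any of the 6 arrays. Neither MIR172b nor MIR172e passed the test between mutant and wild type on any of their 3 probes. The estimates were a log2 change of 0.18 for MIR172b and of -0.01 and -0.64 on the 2 MIR172e probes. Without wild-type replicate 3, 1 MIR172e probe was called lower in the mutant, as described below. In all, 9 of the 24 wild-type spots and 8 of the 24 mutant spots of the family were well above background. Over all probes the share was 37.87%, 37.42% and 24.14% on the wild-type arrays (replicates 1 to 3). It was 17.56%, 17.76% and 24.83% on the mutant arrays, so these counts come from arrays of unequal detection.

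MIR172b, the family member known from the EAT line, was well above background on all 6 arrays. Its processed signal, an intensity after background subtraction, read 28.4, 22.7 and 30.2 on the wild-type arrays (replicates 1 to 3), against 15.3, 13.5 and 23.6 on the mutant arrays (same order). The unprocessed spot medians behind these values were 50, 42 and 51.5 on wild-type arrays over a local background of 13 to 14, and 33, 31.5 and 51 on mutant arrays over 13 to 24.5. These are dim spots, in the 84th to 89th percentile of all probes on their arrays. The mutant spots had the lower unscaled signals on 2 of 3 arrays, which were also the 2 arrays with the lowest scaling percentile.

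Scaled signal, in which each array's 75th percentile is set to 100, was 7.74, 7.46 and 8.13 for MIR172b on the wild-type arrays, against 9.46, 8.73 and 8.28 on the mutant arrays, here and below in the order of replicates 1 to 3. All 3 mutant arrays lay above all 3 wild-type arrays, though the highest wild-type and the lowest mutant array differed by little. Groups separated in this way, with the mutant higher, on 12.2% of all 3345 tested probes. The means were 7.78 ± 0.337 and 8.82 ± 0.596 (SD, n = 3 each), 13.5% higher in the mutant, while the scanner software put the error of a single spot at 10.4% to 12.2% of its signal. The log2 change was 0.18 (SE 0.117, 95% interval -0.11 to 0.47, limma adjusted p = 0.318). In fold terms the interval runs from 0.927 to 1.39, so the fit leaves room for a rise of up to 1.39-fold and for a slight fall.

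MIR172e, the other precursor with a signal, was measured on probes CUST_3089 and CUST_3090, which did not give the same picture. On CUST_3090 the scaled signal was 7.87, 8.42 and 2.83 on the wild-type arrays, against 3.54, 4.00 and 3.50 on the mutant arrays, all well above background. Wild-type replicates 1 and 2, from the shared slide, stood highest, and wild-type replicate 3 lay below every mutant array, so the groups overlapped. The wild-type mean was 6.37 ± 3.08 and the mutant mean 3.68 ± 0.279 (SD over 3 arrays). These are dim spots too, with unprocessed medians of 49.5, 45 and 30 on wild-type arrays over local backgrounds of 13.5 to 15. On the mutant arrays the spot medians were 22, 22 and 32 over 15, 12 and 28. The log2 change was -0.64 (SE 0.441, 95% interval -1.73 to 0.45, limma adjusted p = 0.342), 1.56-fold lower in the mutant and within the spread of the wild-type arrays.

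On CUST_3089 the scaled signal was 3.85, 2.42 and 1.46 on the wild-type arrays, against 3.21, 2.30 and 1.80 on the mutant arrays. The groups overlapped almost fully, and the probe was not well above background on mutant replicate 2. Its spot median there was 21 over a local background of 12, while mutant replicate 3 was flagged at 28 over 24. The log2 change was -0.01 (SE 0.409, 95% interval -1.02 to 1.00, limma adjusted p = 0.988), an interval that takes in a 2.00-fold change either way. CUST_3089 is also the dimmer spot, with a processed signal of 3.56 to 14.2 over the 6 arrays against 5.73 to 28.9 for CUST_3090. Averaged over both probes, MIR172e stood at -0.33 on the log2 scale (SE 0.403, limma adjusted p = 0.583).

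Wild-type replicate 3 decided the MIR172e value on CUST_3090. Its scaled signal there was 2.78-fold below the lower of the other wild-type arrays, and on CUST_3089 it was 1.66-fold below. On the MIR172b probe it was slightly above both. Wild-type replicate 3 lay at least 2-fold below both other wild-type arrays on 532 tested probes (15.9%) and at least 2-fold above both on 20 (0.598%), so the MIR172e spot was one of many. Among tested probes of other miRNA precursors it did so on 17 of 138. Without that array, CUST_3090 fell by 1.15 on the log2 scale (SE 0.138, limma adjusted p = 0.00691), while CUST_3089 stood at -0.37 (adjusted p = 0.446) and MIR172b at 0.21 (adjusted p = 0.278). The wild type is then represented by 1 slide alone, slide and genotype cannot be told apart there, and 23% of all tested probes were called lower.

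MIR172a, MIR172c and MIR172d gave only bounds, since none of their 5 probes was well above background on any array. The MIR172a processed signal was 1.82 to 4.01 on wild-type and 0.998 to 4.16 on mutant arrays. The ranges on the MIR172c probes were 0.852 to 1.53 and 0.808 to 0.913 (CUST_5612), and 1.11 to 2.16 and 1.54 to 2.45 (CUST_5613), wild type first. On the MIR172d probes they were 1.44 to 3.98 and 0.830 to 2.06 (CUST_8138), and 0.849 to 1.92 and 0.854 to 2.34 (CUST_8139). These signals are unscaled, and the scaling percentile was lower on every mutant array, so the ranges do not compare the groups. The scanner software's error for these spots reached 98.6% of the signal, and no fold is given for them. The weaker flag of the same software, for a signal that is positive and significant, was set for MIR172a on 3 wild-type and 2 mutant arrays and for CUST_8138 of MIR172d likewise. It was set for CUST_5613 of MIR172c on 2 and 1, for CUST_5612 on 1 and 0, and for CUST_8139 on 1 and 1.

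**Figure D1:**
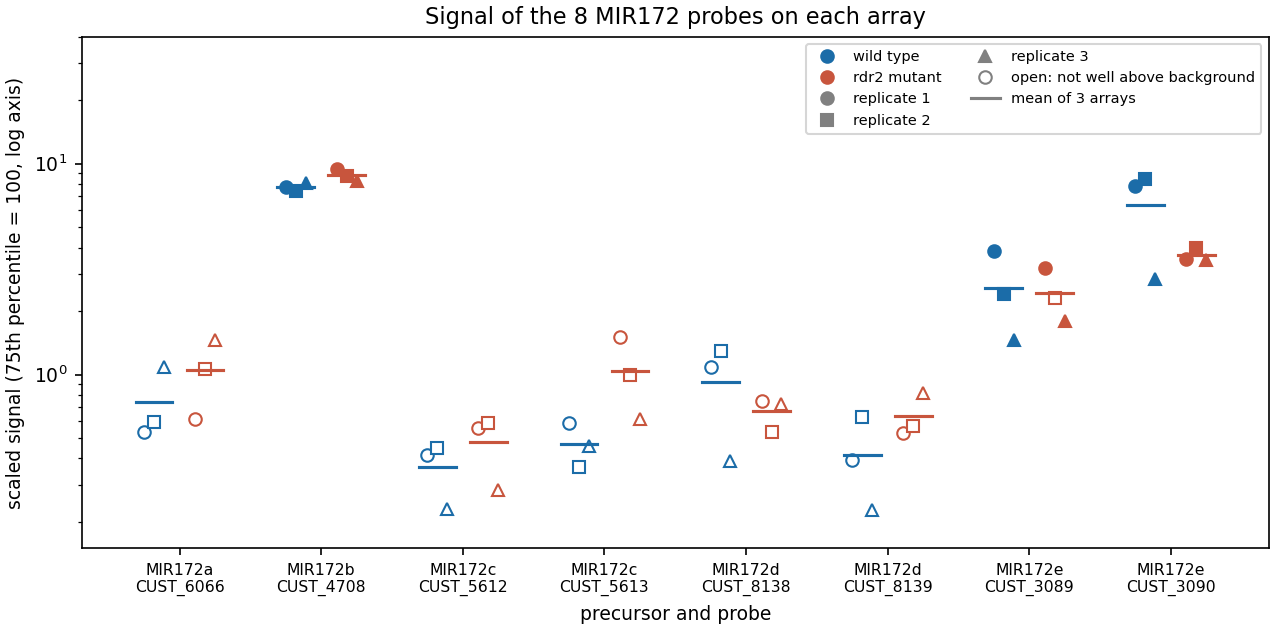
Scaled signal (log axis, 75th percentile of each array = 100) of the 8 MIR172 probes on each of the 6 arrays, with filled symbols for spots well above background, open symbols for the others, and a line at the mean of 3 arrays. The MIR172b mutant arrays (8.28 to 9.46) sit just above the wild-type arrays (7.46 to 8.13), and on CUST_3090 of MIR172e wild-type replicate 3 (2.83) sits below every mutant array. Heights of different probes are not comparable, since each probe has its own hybridisation strength.

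Over the whole array 13.6% of the 3345 tested probes were called (171 higher and 284 lower in the mutant, limma adjusted p under 0.05), and the median tested probe had a log2 change of -0.26. Of the 3 tested MIR172 probes 0 were called, 0 had an unadjusted p under 0.05, and 0 were called by the same model without moderation of the variances. With 3 probes, a count of 0 does not separate the family from that background. Relative to the median tested probe, MIR172b stood at 0.44, CUST_3089 at 0.25 and CUST_3090 at -0.38 on the log2 scale, the 79th, 68th and 27th percentile of all changes. The median depended on the filter. It was 0.16 with no filter, close to the MIR172b change of 0.18, and -0.43 when 1 array above background sufficed. The tested probes of other miRNA precursors had a median change of -0.23, with 5 called higher and 10 lower, 10.9% of 138.

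**Figure D2:**
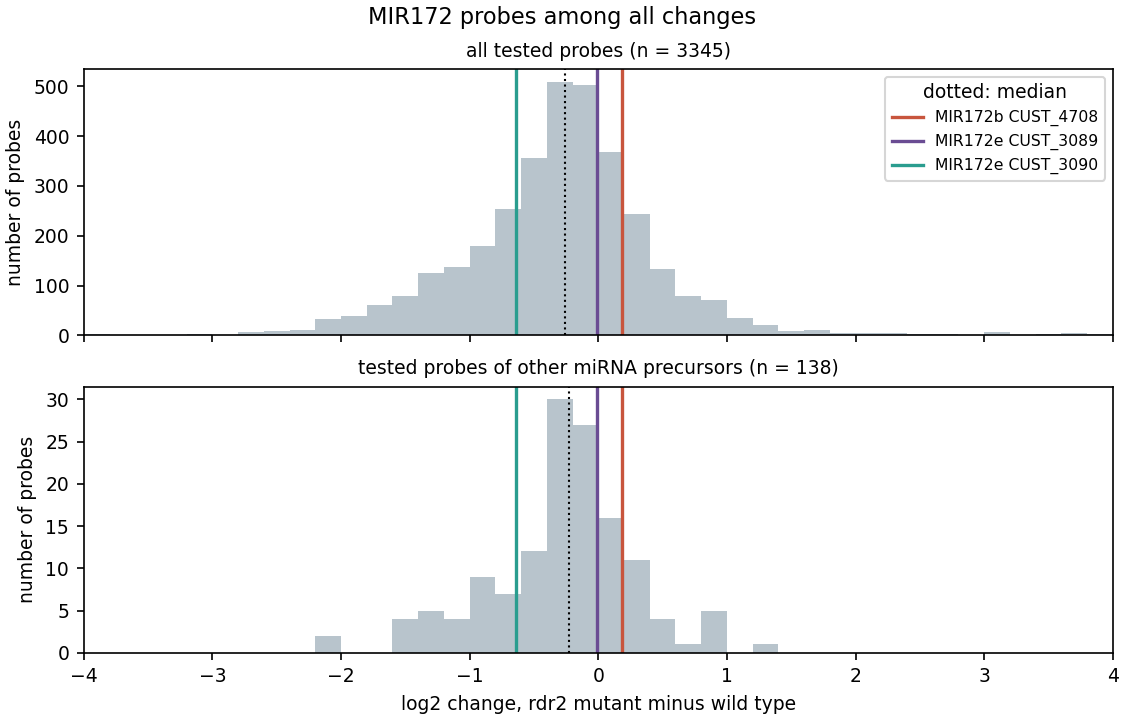
Number of probes by log2 change (rdr2 mutant minus wild type) for all 3345 tested probes (upper panel) and for the 138 tested probes of other miRNA precursors (lower panel), with coloured lines at the 3 tested MIR172 probes and a dotted line at the median. MIR172b (0.18) and CUST_3089 of MIR172e (-0.01) lie to the right of both medians (-0.26 and -0.23) and CUST_3090 (-0.64) to the left. The axis ends at 4 in each direction, leaving 31 tested probes outside it.

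Because array scaling moves every probe of an array together, the MIR172 signals were also set against the other miRNA precursors on the same array. The difference between the MIR172b log2 signal and the median of the other tested precursor probes was -0.54, -0.55 and -0.01 on the wild-type arrays, against 0.29, 0.24 and -0.02 on the mutant arrays. Mutant replicates 1 and 2 stood highest, but mutant replicate 3 and wild-type replicate 3 were nearly equal, so the groups overlapped. The mean difference was 0.54 higher in the mutant, with an exact two-sided permutation p = 0.2 and an adjusted p = 0.5 over the 3 probes. The corresponding shifts were 0.35 for CUST_3089 and -0.28 for CUST_3090 (exact permutation p = 0.5 for each, adjusted p = 0.5). With 3 arrays against 3 this test cannot go below 0.1. These shifts also changed in size when single arrays were left out, from 0.45 to 0.72 for MIR172b. Without wild-type replicate 3 they were 0.72 for MIR172b, 0.14 for CUST_3089 and -0.64 for CUST_3090. The CUST_3090 shift was -0.14 and -0.07 without wild-type replicates 1 and 2, and the CUST_3089 shift 0.61 without wild-type replicate 1, 0.12 without mutant replicate 1 and 0.59 without mutant replicate 3. With normexp background correction the shifts were 0.21, 0.21 and -0.03, for MIR172b, CUST_3089 and CUST_3090. That correction started from the unprocessed spot and background medians and added an offset of 50 to every signal. The offset exceeds the highest processed signal of these probes (30.2). The normexp shifts were smaller in size than in the main setting, and the cause was not tested.

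Whether the mutant differed from the wild type unequally in MIR172b and MIR172e, the only pair of precursors with a signal, was tested on their difference within each array. MIR172b minus MIR172e, the latter averaged over its probes, was 0.49, 0.72 and 2.00 on the log2 scale on the wild-type arrays, against 1.49, 1.52 and 1.72 on the mutant arrays. Wild-type replicate 3 exceeded every mutant array and the other wild-type arrays lay below all of them. The mean shift of 0.51 was smaller than the wild-type SD of 0.813 (exact two-sided permutation p = 0.4), so a difference between these precursors was not resolved. Without wild-type replicate 3 the shift was 0.97, over a wild-type SD of 0.164, and the groups no longer overlapped (exact two-sided permutation p = 0.2, the smallest that 2 arrays against 3 allow). It was 0.22 and 0.33 without wild-type replicates 1 and 2, and 0.12 with normexp background correction.

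Over the 6 arrays, the MIR172b signal and CUST_3090 of MIR172e ran against each other (Pearson r = -0.68), MIR172b and CUST_3089 were unrelated (r = 0.08), and the MIR172e probes correlated at r = 0.62. These are descriptions over 6 arrays that share slides and scaling. The tested transcripts with the pattern most like MIR172b were the lincRNA unit AT1TU036140 (r = 0.97) and AT2G21188.1 (r = 0.96). AT1TU036140 had scaled signals of 2.56, 2.50 and 3.14 on the wild-type arrays, against 4.88, 3.89 and 3.77 on the mutant arrays, a log2 change of 0.61 (limma adjusted p = 0.0667). Those most like CUST_3090 of MIR172e were the lincRNA units AT4TU019400 (r = 0.996) and AT5TU083370 (r = 0.996). Like CUST_3090, AT4TU019400 was high in wild-type replicates 1 and 2 (scaled signal 19.1 and 17.6) and low in wild-type replicate 3 (3.15), with 4.81, 5.74 and 4.39 in the mutant. An r above 0.9 with CUST_3090 was reached by 287 tested probes, against 46 for MIR172b.

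Of the pathway around miR172, DCL1 was the gene that could be read. None of the 6 AP2-type targets (AP2, TOE1, TOE2, TOE3, SMZ and SNZ) and none of the 6 listed regulators of MIR172 genes (SPL3, SPL9, SPL10, SPL15, GI and SVP) was found among the probe names, so the response of the targets was not measured here. DCL1 (AT1G01040), which cuts miRNA precursors and is 1 of 7 listed miRNA pathway genes, had 3 tested probes, with log2 changes of -0.36, -0.34 and -0.08 (limma adjusted p = 0.124, 0.114 and 0.766). None passed the threshold, and relative to the median tested probe they stood at -0.10, -0.08 and 0.18.

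The direction of the MIR172e values depended on the processing and on single arrays, and that of MIR172b did not under the alternatives run. MIR172b had a positive log2 change in the main setting and under all 20 alternatives, from 0.09 to 0.79, and passed the threshold under none of them (adjusted p 0.169 to 0.979). Some alternatives cannot move the estimate. Those of filter, threshold and variance moderation and the replicate block all left it at 0.18. The deposited values nearly repeat quantile normalization (0.63 under each). The same repeats enter the MIR172e counts that follow. CUST_3089 was positive under 11 of 21 alternatives and negative under 10, from -0.41 to 0.60. CUST_3090 was negative under 20 of 21, the exception being 0.03 with normexp background correction, and passed the threshold under 1, without wild-type replicate 3. With normexp, MIR172b stood at 0.27 and CUST_3089 at 0.26, both larger in size than in the main setting. The normexp setting started from the unprocessed spot and background medians and added an offset of 50. The effect of the offset alone was not tested. The median change of all tested probes itself moved from -0.26 to -0.02 with quantile normalization and to 0.35 with the 75th percentile over all probes.

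**Figure D3:**
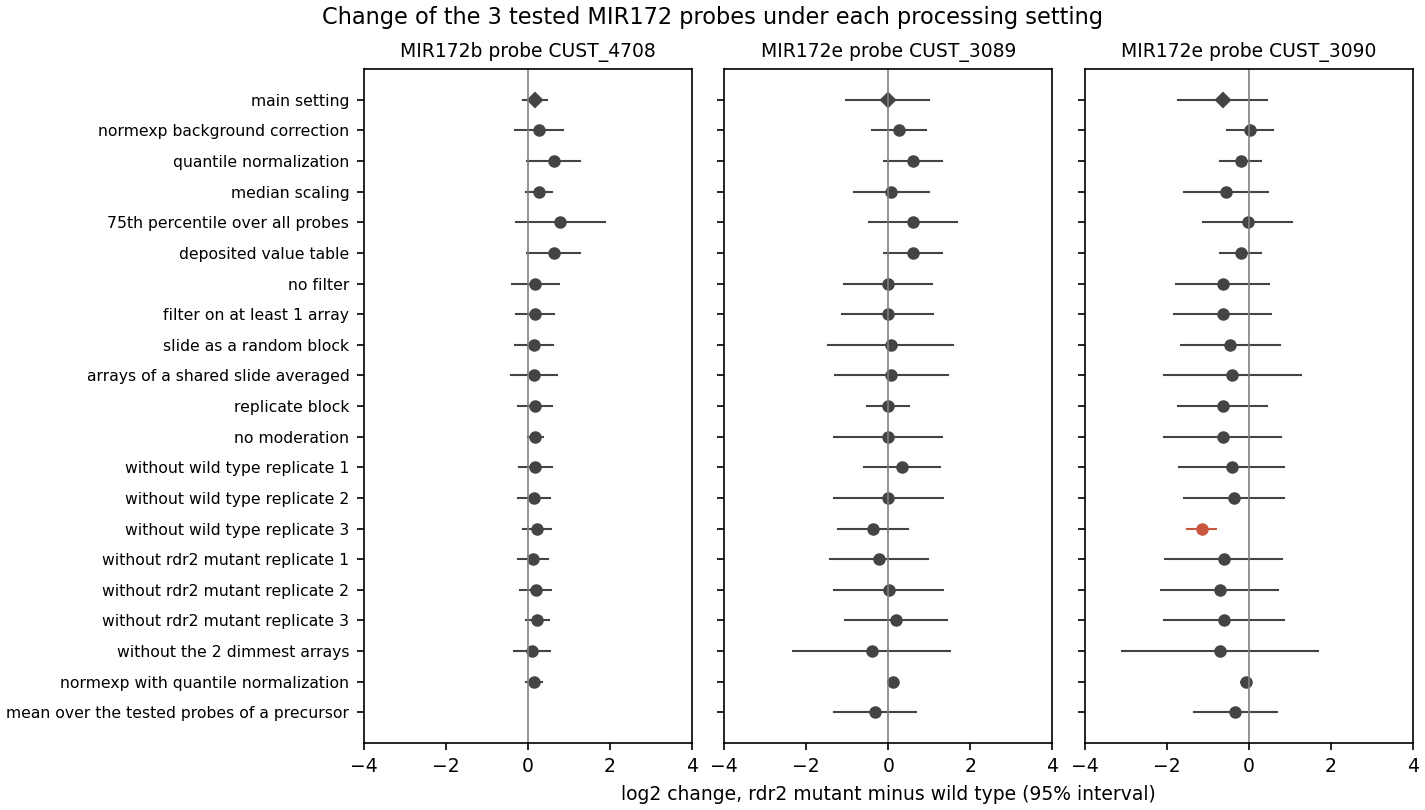
Log2 change (rdr2 mutant minus wild type) with its 95% interval for the 3 tested MIR172 probes, 1 row per processing setting, with a diamond for the main setting and red where the adjusted p was under 0.05. All MIR172b points lie right of 0 (0.09 to 0.79), and the sole red interval is that of CUST_3090 without wild-type replicate 3 (-1.15). The last setting averages the probes of a precursor and applies to MIR172e.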

How the data were processed

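Each of the 6 samples had 1 scanner file. Per the file headers, the authors read the 1-channel scans with Feature Extraction by Agilent, version 10.7.3.1 for mutant replicate 3 and 10.5.1.1 for the others. The processed signal is, per the file headers, a background-subtracted, spatially detrended intensity that was not normalized between arrays. The flags for spots well above background, positive and significant, saturated or uneven are other columns of the deposited files. The deposited value table holds log2 values with column medians of 0.949, 0.949, 0.949, 0.949, 0.949 and 0.950, and at least 99.86% of them lay within 0.1 of a recomputed log2 processed signal, floored at 1 and quantile normalized. No probe had a second spot.

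Processed signals were divided by the array's 75th percentile, taken over 2369 probes that were well above background on every array, and put on the log2 scale. A probe was tested if it was well above background throughout either group (3345 probes). The model was fitted with limma 3.58.1 under R 4.3.3 (lmFit and eBayes, with genotype and no other covariate). P-values were adjusted by Benjamini and Hochberg over all tested probes, with calls at 0.05. Differences within arrays were compared by exact permutation. Figures were drawn with matplotlib 3.10.9. The precision is limited by the number of arrays, 3 per group.

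The MIR172 probes, gene lists and tests were chosen with earlier results of these data known. Named genes were every MIR172 probe, RDR2, list genes found on the array, and, for MIR172b and MIR172e, the 2 transcripts of highest Pearson r over 6 arrays with the precursor's brightest probe. Samples with the same replicate number did not deviate together (correlations of -0.12, -0.12 and -0.15), and the main model did not pair them. With 3 arrays per group on few slides, these values cannot show whether the samples were paired when grown or processed.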

Additional observations from a re-analysis of the deposited data

How the results depend on the processing

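No MIR172 probe was called higher under any alternative, and 0 were called lower except 1 without wild-type replicate 3. CUST_3089 of MIR172e, at -0.01 in the main setting, was positive with normexp background correction (0.26), quantile normalization (0.60), scaling by the median (0.073), the 75th percentile over all probes (0.60), the deposited value table (0.60), slide as a random block (0.053), arrays of a shared slide averaged (0.068) and normexp with quantile normalization (0.11), the last chosen after seeing the data. CUST_3090 was 0.033 with normexp. Leaving out 1 array gave 0.13 to 0.23 for MIR172b, -0.37 to 0.33 for CUST_3089, where it was 0.33, 0.01 and 0.19 without wild-type replicate 1, mutant replicate 2 and mutant replicate 3, and -1.15 to -0.36 for CUST_3090. The causes were not tested.

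The numbers of all tested probes called higher and lower (171 and 284) were 47 and 33 with normexp, 39 and 20 with no filter, 45 and 34 when 1 array above background sufficed, 57 and 55 with slide as a random block, 29 and 16 with shared slides averaged, 71 and 78 at a threshold of 0.01, and 26 and 37 without the 2 dimmest arrays (mutant replicates 1 and 2, chosen after seeing the data). Quantile normalization gave 146 calls lower, scaling by the median 186, the 75th percentile over all probes 36 and the deposited values gave 138. Without 1 array they ran from 77 to 277 higher and 75 to 770 lower. RDR2 was called lower on 3 of 3 probes under all of these. With the replicate block 58 and 71 probes were called, and MIR172b (adjusted p = 0.444), CUST_3089 (0.974) and CUST_3090 (0.330) were not. The positive-and-significant flag raised the count of MIR172 spots from 9 to 19 in the wild type and from 8 to 15 in the mutant. Within arrays, MIR172b against other precursors ranged from 0.21 to 0.78, CUST_3089 from 0.12 to 0.61, CUST_3090 from -0.64 to -0.03 and MIR172b minus MIR172e from 0.12 to 0.97. The dim signals limit what the arrays can show for MIR172a, MIR172c and MIR172d.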
